A study of Rattus norvegicus with 16 samples.

Results

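Kelch and ASB proteins are the substrate receptors, or adaptors, of cullin-RING ubiquitin ligases, and their messenger RNAs were followed in the rat supraspinatus, a rotator cuff muscle, after tendon and nerve injury. Members were the genes of the deposited table whose symbol begins with Klhl, Kbtbd or Asb followed by a digit, except a further such gene that is not reported here. The rule used the symbol alone and no measured value. It gave 50 of the 17147 genes in the table: 28 Klhl, 6 Kbtbd and 16 Asb genes. Of these, 46 had a mean of at least 10 raw fragments over the 16 libraries, and all 46 passed the filter for low counts and were tested.

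The animals were Sprague Dawley rats. In 3 of the 4 groups the supraspinatus had been torn through its full thickness bilaterally and its nerve supply interrupted by suprascapular neurectomy, and muscle was taken 10, 30 or 60 days later. The fourth group, called 0 days, was unoperated control muscle of the same strain. Each group had 4 libraries. Both injuries were made in every operated animal, so an effect of the tear and an effect of nerve loss cannot be told apart. The labels give neither age nor sex, and do not tie libraries to single rats. The tears were bilateral, and library titles end in the letter L or R, whose meaning is not given. Some libraries of a group may therefore come from the same rat, and 4 libraries from fewer than 4 rats. P-values here measure the spread between these libraries, which may lie partly within rats or be partly technical.

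In a cullin-RING ligase the cullin is a scaffold that holds a RING protein, which brings the ubiquitin-charged enzyme, and an exchangeable adaptor, which picks the substrate. BTB-Kelch proteins (Klhl and Kbtbd genes) bind cullin 3 through their BTB domain and the substrate through their Kelch repeats. ASB proteins bind substrates through ankyrin repeats and reach cullin 5 through a SOCS box that docks on elongins B and C. Several adaptors are known for their role in striated muscle. Mutations of KLHL40 and KLHL41 cause nemaline myopathy, and ASB2 targets filamins, actin crosslinkers of the muscle cell. Denervated muscle loses protein in part through ubiquitin ligases, of which the best known, Trim63 and Fbxo32, are neither Kelch nor ASB genes.

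Library totals ran from 17.2 to 39.9 M fragments (M, mega), and the 4 libraries at 60 days (17.2 to 22.4 M) were all below the others (22.9 M or more). Levels are given as TMM-scaled CPM (a gene's share of the library, per 1 M fragments), which are not divided by gene length, so they are compared between libraries and not between genes. The depth set a floor (3 fragments) of 0.0712 to 0.175 CPM on this scale. The label of the tissue was checked against 8 muscle fibre genes, including Acta1 and Ckm, whose summed level was 198500 to 219500 CPM at 0 days. That sum was 46480 to 52260 CPM at 10 days, 77760 to 119300 CPM at 30 days and 112700 to 128900 CPM at 60 days. For 4 genes known to rise after nerve loss (Chrna1, Chrng, Myog and Ncam1) the sum was 45.6 to 61.0 CPM at 0 days, 1822 to 2496 at 10 days, 1011 to 2197 at 30 days and 135.6 to 289 at 60 days. Markers of other cells also differed between groups: 6 macrophage genes summed to 13.6 to 22.6 CPM at 0 days and 42.3 to 90.6 in the operated groups, and 6 fibroblast genes to 455.2 to 973.9 against 927.4 to 2856. The 4 endothelial genes summed to 196.9 to 239.8 CPM at 0 days and 104.6 to 165.6 at 10 days, the 4 adipocyte genes to 7.42 to 41.5 at 0 days and 49.6 to 118.6 at 60 days, and the 4 Schwann cell genes to 37.6 to 62.0 at 0 days and 67.0 to 150.1 at 60 days. No marker was at 0 in all libraries of a group. The part of these shifts in the changes below was not tested, and in such bulk samples fewer cells of a type and less RNA per cell cannot be told apart.

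The 250 bases before the start site are shown for 4 genes of the muscle list for which RefSeq places the start site at the outer end of the gene. They are examples. Klhl21 (CAGCTG at -217) and Klhl9 (CAGCTG at -39) also met these conditions and are not shown. Asb16 was the only member whose window held all 3 kinds of motif marked below. Klhl40 and Klhl41 rose after injury, and Asb16 and Klhl31 fell. Sequences and coordinates are RefSeq's, on the rat build GRCr8, and run 5' to 3' on the gene's strand. Capitals mark the E-box CAGCTG, the core bound by myogenic factors, and the MEF2 core (CTA, any 4 bases, TAG) and forkhead motif GTAAACA, each searched on both strands. The windows lie at chr8:130318543-130318792 (+) for Klhl40, chr3:74841868-74842117 (+) for Klhl41, chr10:87725878-87726127 (+) for Asb16 and chr8:87395628-87395877 (+) for Klhl31.
Klhl40: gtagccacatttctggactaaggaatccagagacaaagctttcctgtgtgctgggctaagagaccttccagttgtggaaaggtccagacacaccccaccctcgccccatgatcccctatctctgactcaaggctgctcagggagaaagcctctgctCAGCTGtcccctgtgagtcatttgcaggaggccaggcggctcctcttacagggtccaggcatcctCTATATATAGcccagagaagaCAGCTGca
Klhl41: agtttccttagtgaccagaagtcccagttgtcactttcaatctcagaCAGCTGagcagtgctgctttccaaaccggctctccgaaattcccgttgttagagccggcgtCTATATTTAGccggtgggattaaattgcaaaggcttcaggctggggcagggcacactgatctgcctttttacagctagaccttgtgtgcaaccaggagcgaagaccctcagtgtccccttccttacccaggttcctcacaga
Asb16: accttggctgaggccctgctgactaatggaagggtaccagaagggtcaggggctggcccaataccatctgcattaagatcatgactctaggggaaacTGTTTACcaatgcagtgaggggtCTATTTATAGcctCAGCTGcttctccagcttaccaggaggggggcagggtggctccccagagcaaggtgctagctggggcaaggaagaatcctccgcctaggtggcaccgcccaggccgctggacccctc
Klhl31: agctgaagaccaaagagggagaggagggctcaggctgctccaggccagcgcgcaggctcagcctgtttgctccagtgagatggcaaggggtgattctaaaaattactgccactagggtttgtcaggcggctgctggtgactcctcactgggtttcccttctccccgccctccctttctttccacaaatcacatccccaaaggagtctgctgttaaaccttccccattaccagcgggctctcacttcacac
Klhl40 had CAGCTG at positions -94 and -8 from the start and the MEF2 core at -29, and Klhl41 had CAGCTG at -203 and the MEF2 core at -142. Asb16 had all 3 motifs, at -117, -130 and -153, the last as its reverse complement TGTTTAC. The Klhl31 window held none of these letters.

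Promoter windows of 250 bases before to 50 after the start were found for 44 of the 50 members. Of these windows, 18 were read from the outermost start of the gene. The other 26 were read from a start site further inside it, so they may not be the gene's main promoter. CAGCTG was in 17 of the 44 (38.6%), against 15.1% of all 27457 rat windows of that length. It was in 7 of 13 Asb and 10 of 31 Klhl and Kbtbd windows. The related E-box CACCTG was in 3 of 44 (6.82%) against 18.7% of all windows. The MEF2 core was in 4 of 44 (9.09%; Asb16, Asb18, Klhl40 and Klhl41) against 3.83%, and GTAAACA was in 2 of 44 (4.55%) against 3.76%. CAGCTG reads the same on both strands and was counted apart from CACCTG. A match describes letters in the window, not a site that is bound.

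More adaptor genes fell than rose with TMM scaling, a split that turned at each time with library totals. Over the 4 times, 41 of 46 members changed (edgeR quasi-likelihood F test on all differences from 0 days, Benjamini-Hochberg adjusted p under 0.05), a share near that of all 11658 genes tested, 84.7%. The 5 others were Asb6, Kbtbd4, Kbtbd6, Klhl26 and Klhl36. At 10 against 0 days, 10 members were higher and 21 lower (21.7% and 45.7%), where 33.3% of all genes were higher and 29.4% lower. At 30 against 0 days, 13 were higher and 20 lower (28.3% and 43.5%), beside 33.7% and 30.9% of all genes. At 60 against 0 days, 10 were higher and 25 lower (21.7% and 54.3%), beside 29.9% and 29.1%. The members' median log2 fold change was -0.12, -0.26 and -0.36 at the 3 times, beside 0.06, 0.05 and 0.04 for all genes. These 3 comparisons share the 0-day libraries.

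The split between higher and lower depended on the scaling. Scaled to library totals alone, the median of all genes was shifted up by 0.66, 0.50 and 0.41 (log2) at 10, 30 and 60 against 0 days, and upper-quartile scaling shifted it by 0.05, 0.12 and 0.14. With library totals, 26 members were higher and 10 lower at 10 days, beside 70% and 10.1% of all genes. The counts were then 19 and 11 at 30 days, beside 63.1% and 11.9% of all genes, and 16 and 12 at 60 days, beside 57.8% and 12.1%. The members' median was below that of all genes on this scaling too, at 0.54 against 0.72, 0.23 against 0.54 and 0.05 against 0.45. Directions below are relative to the bulk of genes, as TMM sets it, and members whose direction turned with library totals are named where they appear.

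**Figure D1:**
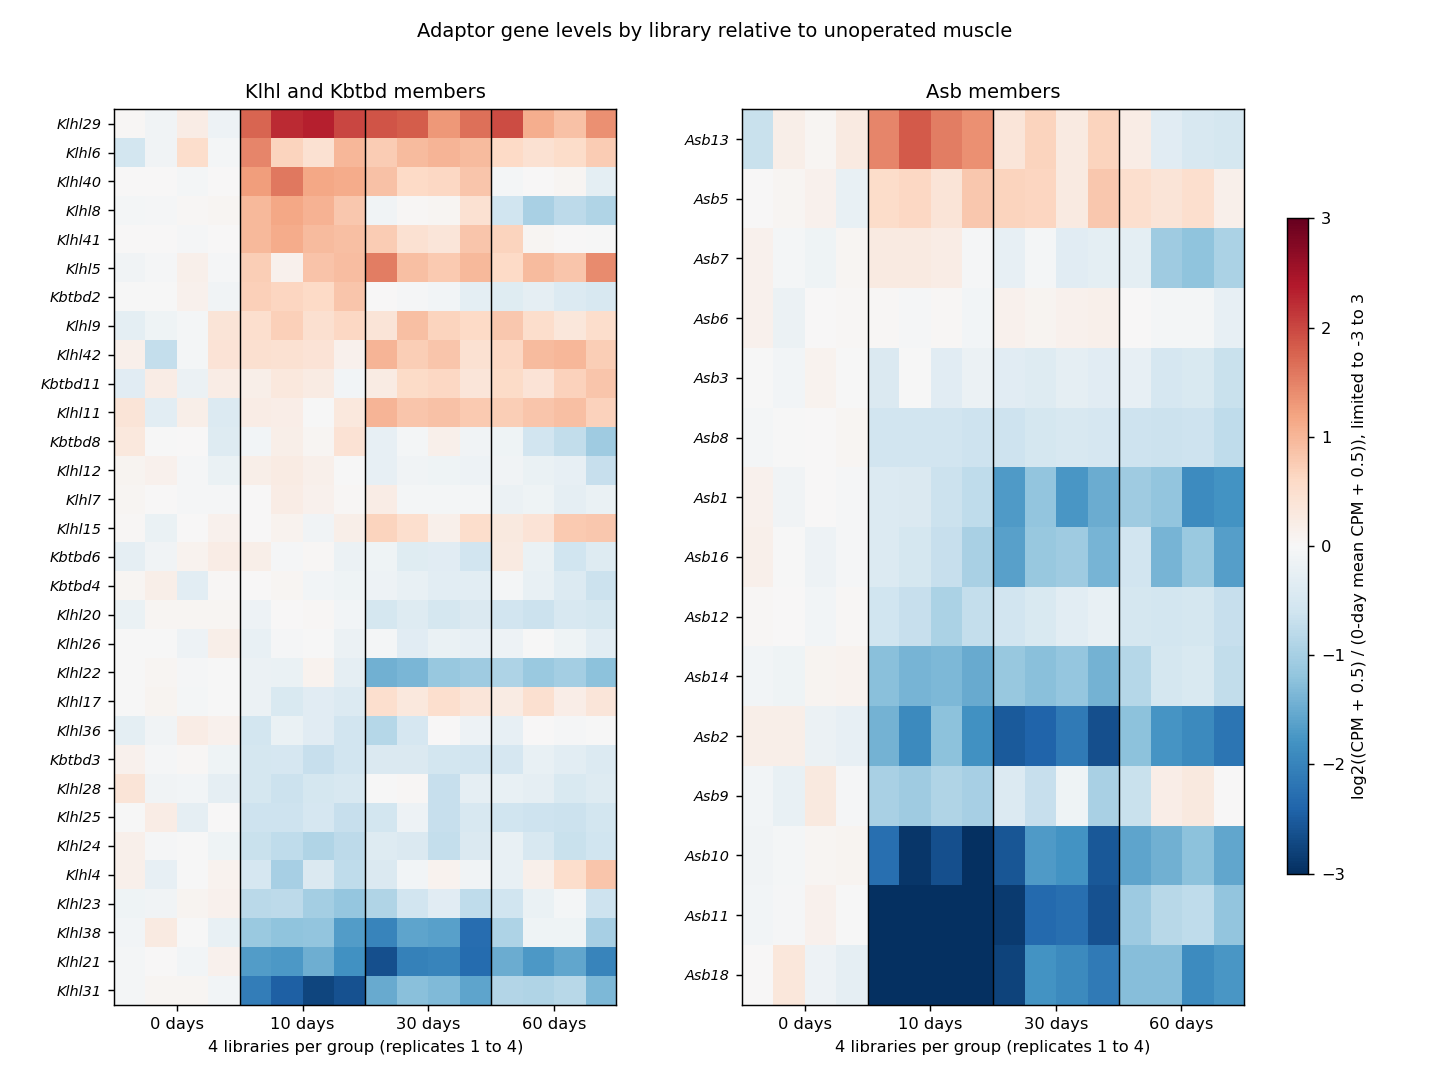
Each row is 1 of the 46 tested adaptor genes and each column 1 of 16 libraries, grouped by days after injury. Colour gives log2((CPM + 0.5)/(mean CPM at 0 days + 0.5)), limited to 3 in either direction; rows are ordered by the change at 10 days, and the right panel shows that 10 of the 15 Asb genes fell at 10 days with TMM scaling.

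A larger share of the Asb genes fell than of the Klhl and Kbtbd genes. Of 15 Asb genes tested, 10 were lower and 2 higher at 10 days, 11 and 2 at 30 days, and 11 and 1 at 60 days, with medians of -0.64, -0.83 and -0.66. The shares lower were 66.7%, 73.3% and 73.3%, against 35.5%, 29% and 45.2% of the Klhl and Kbtbd genes. For all genes they were 29.4%, 30.9% and 29.1%, and the shares of all genes that were higher are those given above. With library totals the Asb counts were 6 lower and 5 higher, 7 and 3, and 8 and 2, and the median was 0.02 at 10 days, then -0.35 and -0.26 (log2). Of the 31 Klhl and Kbtbd genes, 11 were lower and 8 higher at 10 days (median 0.01), 9 and 11 at 30 days (-0.13) and 14 and 9 at 60 days (-0.31). With library totals these counts were 4 lower and 21 higher, 4 and 16, and 4 and 14, with medians of 0.67, 0.35 and 0.09. The share lower was then 12.9% at each time, against 40%, 46.7% and 53.3% of the Asb genes. For all genes it was 10.1%, 11.9% and 12.1%. Summed over its members the Asb family stood at 2151 ± 174.9 CPM (SD, n = 4) at 0 days, 928.6 ± 84.0 at 10, 767.4 ± 38.5 at 30 and 966.5 ± 140.7 at 60 days. The Klhl and Kbtbd sum was 4272 ± 61.3, 4624 ± 291.2, 3894 ± 313.5 and 3396 ± 529.8 CPM. Such sums rest on a few abundant genes: Asb2 alone had a mean of 1239 CPM at 0 days, and Klhl41 went from 1472 to 2927 CPM at 10 days.

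**Figure D2:**
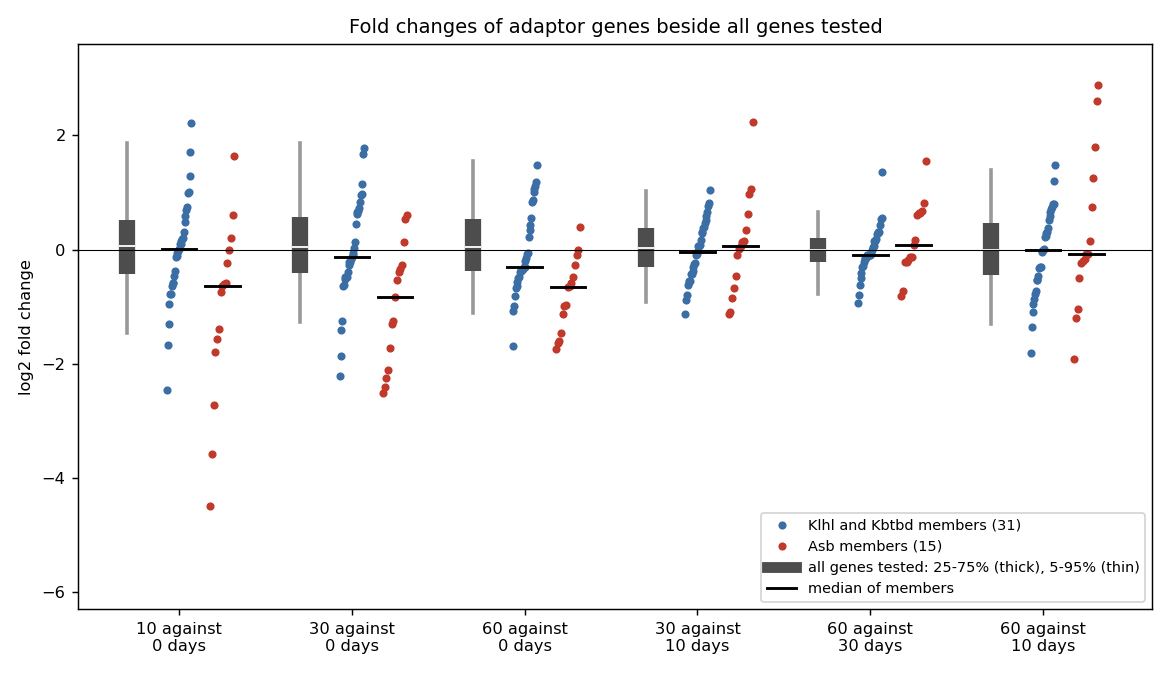
Points are log2 fold changes of the 31 Klhl and Kbtbd members (blue) and the 15 Asb members (red) in each of the 6 comparisons, with black lines at their medians. Grey bars give the middle 50% (thick) and 90% (thin) of all genes tested; the Asb median lies at -0.64, -0.83 and -0.66 against 0 days.

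Klhl40 and Klhl41, adaptors that stabilise or turn over thin filament proteins of the sarcomere, rose at 10 and 30 days and were not called at 60 days. Klhl40 stood at 185.3, 184.3, 175.7 and 184.3 CPM in the 4 control libraries and at 438.7, 545.5, 406.1 and 392.9 CPM at 10 days. It stood at 333.3, 274.8, 280.9 and 326.0 CPM at 30 days and at 176.4, 185.0, 190.6 and 148.9 CPM at 60 days. Every library at 10 and 30 days was above every control, and the 60-day libraries overlapped the controls. The log2 fold change was 1.29 ± 0.11 (SE) at 10 days (adjusted p = 2.61e-08 by edgeR) and 0.74 ± 0.11 at 30 days (adjusted p = 1.5e-05). At 60 days it was -0.06 (adjusted p = 0.65), a value that was 0.35 and called higher with library totals (adjusted p = 0.00935). From 10 to 60 days Klhl40 fell by 1.35 ± 0.11 on the log2 scale (adjusted p = 4.74e-08).

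Klhl41 was also highest at 10 days. Its control libraries held 1488, 1492, 1433 and 1475 CPM, and the 10-day libraries 2901, 3181, 2862 and 2764 CPM. The 30-day libraries held 2500, 2033, 1898 and 2614 CPM, all above the controls, and the 60-day libraries 2349, 1533, 1473 and 1463 CPM. At 60 days replicate 1 alone was far above the other 3, of which 2 lay within the range of the controls and 1 above it. Klhl41 was 1.99-fold higher at 10 days (log2 0.99 ± 0.14, adjusted p = 1.41e-05) and 1.54-fold higher at 30 days (adjusted p = 0.00118). At 60 days the log2 difference of 0.21 was not called (adjusted p = 0.209), and it was called with library totals (0.61, adjusted p = 0.00114). The fall from 10 to 60 days was -0.78 ± 0.14 (log2), and -0.98 without 60-day replicate 1. These levels moved opposite to the summed fibre genes at 10 days and alongside the genes of the denervation list, whose part was not tested.

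**Figure D3:**
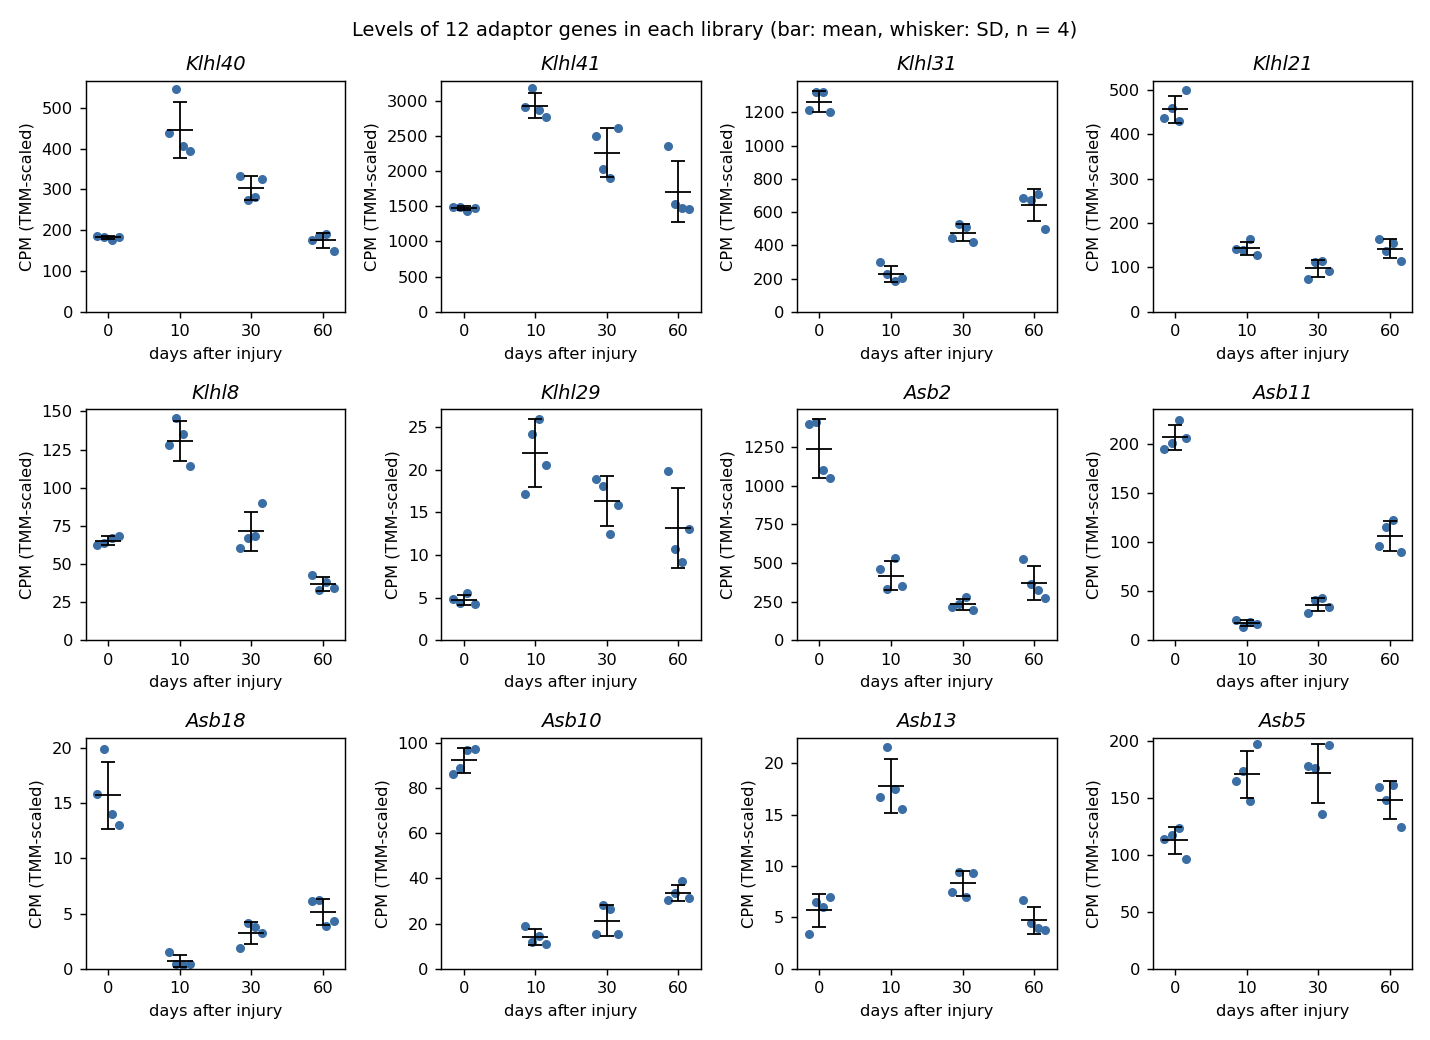
Each panel shows the TMM-scaled CPM of 1 adaptor gene in all 16 libraries by days after injury, with the mean (bar) and SD (whisker, n = 4); axes start at 0. Klhl40 and Klhl41 peak at 10 days, while Klhl31, Asb10, Asb11 and Asb18 are lowest at 10 days and Asb2 and Klhl21 at 30 days.

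Other Kelch adaptors of the muscle list fell. Klhl31, needed for the sarcomere of mouse skeletal muscle, was at 1217, 1320, 1324 and 1200 CPM in the controls and at 297.9, 229.8, 188.5 and 204.7 CPM at 10 days. It stood at 444.9, 528.3, 508.2 and 423.2 CPM at 30 days and 685.5, 674.4, 706.8 and 496.4 CPM at 60 days. No operated library reached a control library, and levels at 60 days overlapped those at 30. Klhl31 was 5.495-fold lower at 10 days (log2 -2.46 ± 0.14, adjusted p = 8.47e-10), 2.66-fold lower at 30 days and 1.98-fold lower at 60 days (adjusted p = 1.55e-05). It rose by 1.48 ± 0.14 (log2) from 10 to 60 days (adjusted p = 2.08e-07).

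Klhl21, which binds Aurora B and acts in cell division, was at 437.7, 459.9, 430.2 and 499.1 CPM in the controls. At 10 days it was at 141.9, 138.8, 163.8 and 128.8 CPM, at 30 days at 73.5, 111.7, 114.9 and 91.5 CPM, and at 60 days at 163.5, 137.4, 154.2 and 114.6 CPM. All operated libraries were below all controls, with the lowest levels at 30 days (log2 -2.22 ± 0.14, adjusted p = 1.84e-09). The difference from controls was -1.67 ± 0.14 at 10 days and -1.68 ± 0.14 at 60 days, and between 10 and 60 days it was -0.01 (adjusted p = 0.958).

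Klhl38 was at 86.8, 111.5, 91.9 and 78.8 CPM in the controls, at 42.4, 39.5, 40.1 and 28.3 CPM at 10 days and at 23.1, 30.6, 29.3 and 18.4 CPM at 30 days. At 60 days it was at 48.0, 83.7, 84.6 and 46.2 CPM, which overlapped the controls and split into 2 higher and 2 lower libraries. The log2 change was -1.30 ± 0.22 at 10 days and -1.86 ± 0.22 at 30 days (adjusted p = 3.1e-06), and -0.49 was not called at 60 days (adjusted p = 0.0565), although DESeq2 and limma-voom called it. It rose by 1.37 ± 0.22 from 30 to 60 days (adjusted p = 0.000551). Klhl24, whose human mutations cause skin fragility and cardiomyopathy, was 1.72-fold lower at 10 days (adjusted p = 3.45e-06) and about 1.4-fold lower at 30 days (log2 -0.48, which turned to 0.02 with library totals) and 60 days (-0.48). With library totals its calls at 10 and 60 days were lost (-0.13 and -0.08).

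Klhl9, mutated in a distal myopathy and a partner of cullin 3 in mitosis, was the remaining Kelch gene of the list to rise. It was at 63.1, 70.5, 74.2 and 101.3 CPM in the controls, where replicate 4 was the highest, and at 110.3, 127.1, 107.2 and 119.5 CPM at 10 days. The log2 change was 0.59 ± 0.14 at 10 days (adjusted p = 0.00139), 0.66 at 30 days and 0.56 at 60 days, and the 60-day libraries (97.5 to 134.9 CPM) overlapped the controls. Of the 16 tested genes of the muscle list, 12 were lower and 4 higher at 10 days, as many at 30 days, and 11 lower and 2 higher at 60 days. The medians were -1.04, -1.28 and -0.65, and the shares of all genes are those given above. With library totals 8 were lower and 4 higher, 9 and 4, and 8 and 4, with medians of -0.38, -0.79 and -0.24. This list was written with earlier results on these data known, and 5 of its 21 entries (Klhl30, Klhl33, Klhl34, Kbtbd13 and Asb15) were not analysed here.

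**Figure D4:**
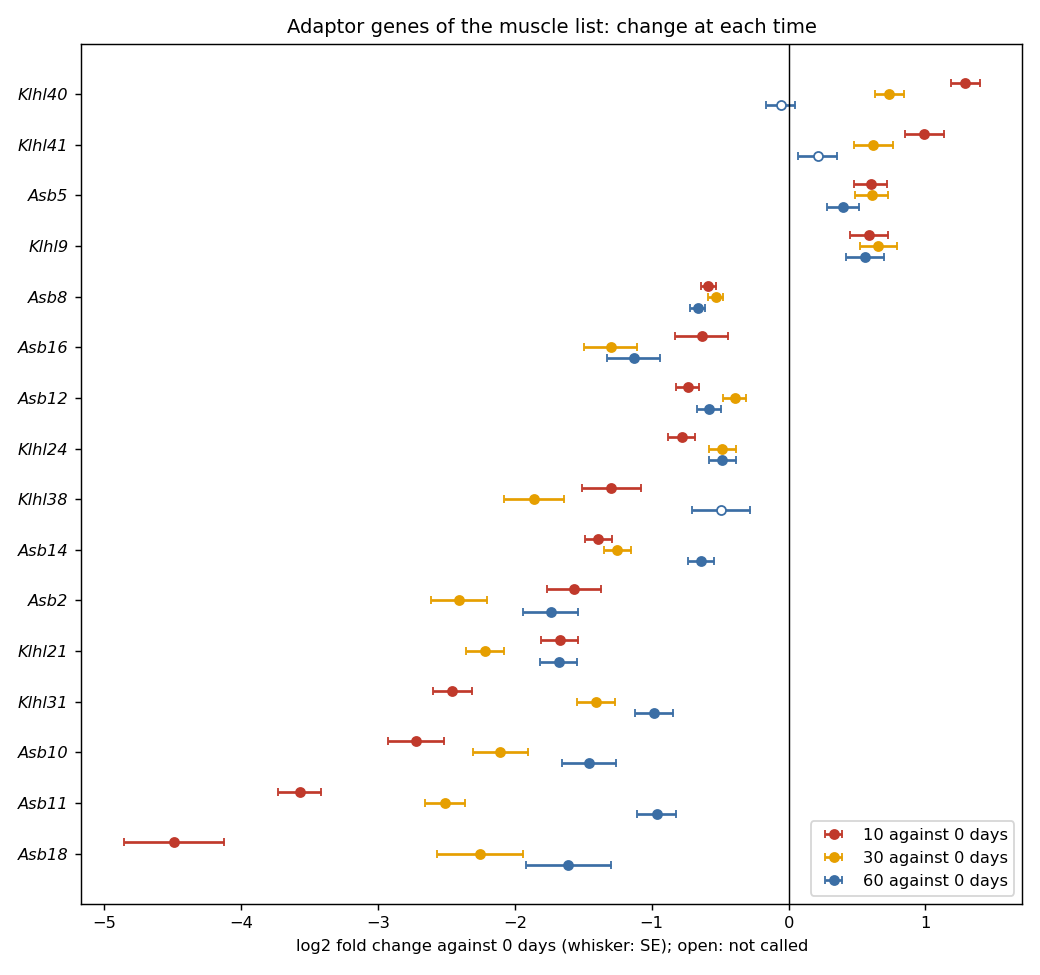
Log2 fold changes against 0 days of the 16 tested muscle-list adaptors at 10 (red), 30 (orange) and 60 days (blue), with whiskers for SE and open points where the gene was not called. Klhl40, Klhl41, Asb5 and Klhl9 lie above 0 at 10 days and the other 12 below, down to -4.49 for Asb18.

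Among the Asb genes, Asb2 is the best described in muscle, where its ligase degrades filamins. It was at 1397, 1410, 1098 and 1052 CPM in the controls and at 460.1, 330.4, 531.2 and 348.6 CPM at 10 days. It was at 216.9, 235.7, 282.8 and 198.1 CPM at 30 days and 525.7, 362.5, 326.8 and 271.5 CPM at 60 days. No operated library overlapped the controls, and the levels at 60 days overlapped those at 10 and at 30 days. Asb2 was 2.97-fold lower at 10 days (adjusted p = 4.24e-06), 5.31-fold lower at 30 days (log2 -2.41 ± 0.20, adjusted p = 6.99e-08) and 3.33-fold lower at 60 days (adjusted p = 2.77e-06).

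Asb11, an endoplasmic reticulum adaptor, fell further at 10 days than every member but Asb18 and was higher again later. Controls were at 195.3, 201.6, 224.7 and 206.6 CPM, and the 10-day libraries at 20.9, 13.4, 18.8 and 16.4 CPM. The 30-day libraries were at 27.9, 40.6, 43.0 and 33.7 CPM and the 60-day libraries at 96.6, 115.2, 122.5 and 90.2 CPM. None of the 4 groups overlapped another. Asb11 was 11.9-fold lower at 10 days (log2 -3.57 ± 0.16, adjusted p = 8.64e-11), 5.70-fold lower at 30 days and 1.95-fold lower at 60 days (adjusted p = 2.96e-05). It rose by 1.55 ± 0.15 (log2) from 30 to 60 days (adjusted p = 4.57e-06).

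Asb18 had low levels: 15.8, 19.9, 14.1 and 13.0 CPM in the controls and 1.48, 0.46, 0.36 and 0.43 CPM at 10 days, where replicate 1 stood above the other 3. It was at 1.88, 4.18, 3.80 and 3.22 CPM at 30 days and at 6.13, 6.22, 3.92 and 4.31 CPM at 60 days. All operated libraries were below the controls. The log2 change was -4.49 ± 0.37 at 10 days (adjusted p = 3.33e-08), -5.22 without that replicate, -2.26 at 30 days and -1.61 at 60 days. Asb10 fell from 86.4, 88.8, 96.9 and 97.2 CPM to 18.9, 11.8, 14.4 and 10.9 CPM at 10 days (6.60-fold, adjusted p = 1.89e-08). It was at 15.2, 28.2, 26.5 and 15.5 CPM at 30 days and at 30.6, 33.6, 38.8 and 31.2 CPM at 60 days, again with no overlap with the controls and with a log2 difference of -1.46 (adjusted p = 1.59e-05).

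The other Asb genes of the muscle list that fell were Asb14, Asb16, Asb12 and Asb8. Asb14 went from a mean of 102.3 CPM to 39.0, 43.0 and 65.6 CPM at 10, 30 and 60 days (log2 -1.39, -1.25 and -0.64). Asb16 went from 78.1 to 50.2, 31.7 and 35.6 CPM (-0.64, which was 0.02 with library totals, then -1.30 and -1.13). Asb12 changed by -0.74, -0.39 and -0.58, of which the value at 30 days was 0.10 with library totals, and Asb8 by -0.59, -0.53 and -0.66, of which the value at 10 days was 0.07. Neither gene's control libraries overlapped an operated one. With library totals the calls of Asb12 at 10 and 60 days, Asb8 at 30 days and Asb14 at 60 days were lost with their sign kept.

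Asb5 and Asb13 went the other way. Asb5, an ankyrin repeat adaptor of skeletal muscle, was at 114.2, 117.1, 123.5 and 96.3 CPM in the controls and at 165.1, 174.0, 147.7 and 197.2 CPM at 10 days. It was at 135.6 to 196.8 CPM at 30 days and 124.9 to 161.0 CPM at 60 days, above all controls each time. The log2 change was 0.60 ± 0.12 (adjusted p = 0.000336), 0.61 (adjusted p = 0.000319) and 0.40 (adjusted p = 0.00933). Asb13, which is known to target the transcription factor SNAI2, was at 3.37, 6.46, 5.98 and 6.99 CPM in the controls and 16.7, 21.6, 17.5 and 15.6 CPM at 10 days. It was 3.10-fold higher at 10 days (log2 1.63 ± 0.21, adjusted p = 3.42e-06) with no overlap. At 30 days it was 0.54 (log2, adjusted p = 0.0319), with overlapping libraries, and that call was lost without 0-day replicate 1 or 30-day replicates 2 or 4 (range over all omissions 0.37 to 0.65). At 60 days it was -0.28 (adjusted p = 0.283), which was 0.12 with library totals.

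The remaining tested Asb genes were Asb9, Asb1, Asb7, Asb3 and Asb6. Asb9, a receptor of the brain-type creatine kinase, went from a mean of 1.10 CPM to 0.31 at 10 days (log2 -1.80, adjusted p = 0.000337) and was back at 1.11 CPM at 60 days. Its lower level at 30 days (-0.83, adjusted p = 0.0372) was lost when 0-day replicates 1, 3 or 4 or 30-day replicates 2 or 4 were left out (range over all omissions -1.10 to -0.64). That call was also lost with library totals, upper-quartile scaling, the title letter as a covariate and thinned counts. Asb1 went from 6.32 to 4.16, 1.89 and 2.02 CPM (log2 -0.60, -1.72 and -1.63), where the value at 10 days was 0.06 with library totals and lost its call without 10-day replicate 4 (the omissions ranged from -0.66 to -0.53). Asb7 was lower at 60 days (log2 -0.98, adjusted p = 0.000714). At 10 days it was 0.21 (adjusted p = 0.352), which was 0.86 and called higher with library totals. Asb3 was lower at 30 and 60 days (-0.34, which was 0.15 with library totals, and -0.47), with both calls lost with library totals, and Asb6 was not called in any comparison with TMM scaling, although it was at each time against 0 days with library totals.

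Kelch adaptors outside the muscle list moved in both directions. Klhl29 was at 4.83, 4.37, 5.58 and 4.21 CPM in the controls and at 17.1, 24.2, 26.0 and 20.5 CPM at 10 days, the largest rise among the members (log2 2.21 ± 0.22, adjusted p = 2.65e-07). It was at 12.4 to 18.9 CPM at 30 days and 9.18 to 19.8 CPM at 60 days, still above every control (1.79 and 1.48). Klhl6, known from lymphocytes, was near the floor in the controls (0.06 to 0.67 CPM) and rose by 1.72 ± 0.42 at 10 days (adjusted p = 0.00191), when the libraries overlapped the controls, and by 1.67 at 30 days. Without 0-day replicate 3, the highest control, these values were 2.34 and 2.30. Its difference at 60 days (1.18, adjusted p = 0.0349) ranged from 0.90 to 1.81 (without 0-day replicate 3) over the omissions and was not called without 0-day replicates 1, 2 or 4 or 60-day replicates 1, 3 or 4. The summed macrophage markers, Ptprc among them, were also higher in all operated groups, and their part in Klhl6 was not tested.

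Klhl8 rose and then fell. It was at 62.4, 63.5, 67.1 and 68.5 CPM in the controls, 127.8, 145.6, 135.5 and 114.4 CPM at 10 days, 60.6, 67.0, 68.2 and 89.7 CPM at 30 days and 43.1, 32.9, 37.9 and 34.6 CPM at 60 days. All 10-day libraries were above the controls and all 60-day libraries below them. The log2 change was 1.00 ± 0.11 at 10 days (adjusted p = 8.62e-07) and -0.82 ± 0.11 at 60 days (adjusted p = 1.58e-05), and 60 against 10 days gave -1.82 ± 0.12 (adjusted p = 7.04e-09). Kbtbd2, an adaptor for the p85alpha subunit of phosphoinositide 3-kinase, was likewise highest at 10 and lowest at 60 days: 47.8 to 56.4 CPM in the controls, 77.5 to 92.5 at 10 days, 41.8 to 52.0 at 30 days and 36.4 to 42.7 at 60 days. It rose by 0.70 ± 0.08 at 10 days (adjusted p = 1.33e-06) and was -0.39 at 60 days (adjusted p = 0.000815), which was 0.02 with library totals.

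Klhl17 (actinfilin, an actin-binding adaptor of neurons) went from 7.27 to 8.14 CPM in the controls to 5.42 to 6.67 CPM at 10 days and then 9.61 to 11.1 CPM at 30 days and 8.94 to 10.9 at 60 days. Its change at 10 days was -0.37 (adjusted p = 0.00434), which became 0.29 and was called higher with library totals, and at 30 and 60 days it was 0.44 and 0.35. Klhl22, an adaptor linked to mTORC1 signalling and mitosis, was at 85.9 to 90.9 CPM in the controls and 72.8 to 94.1 CPM at 10 days (log2 -0.13, adjusted p = 0.251, and 0.53, called higher, with library totals). It was at 32.1 to 41.4 CPM at 30 days and 36.8 to 45.7 CPM at 60 days, both below all libraries at 0 and 10 days (-1.26 and -1.08 against 0 days, adjusted p = 1.68e-08 and 1.61e-07 by edgeR).

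Rises at 30 and 60 days were seen in Klhl11 (0.97 at 30 days, 0.86 at 60), Klhl42, whose ligase targets katanin (0.95 and 1.00), and Klhl15, whose ligase targets a PP2A subunit (0.68 and 0.84). None of these 3 passed at 10 days with TMM scaling (0.21, 0.48 and 0.09), and all 3 were called higher then with library totals (0.87, 1.14 and 0.75). Klhl5 rose at 10 days as well (0.75, 1.16 and 1.06). Klhl20, an adaptor in autophagy control, was lower at 30 days (-0.48, which was 0.01 with library totals) and 60 days (-0.58, not called with library totals). Klhl25, an adaptor for the translation inhibitor 4E-BP1, was lower at each time (-0.65 and -0.48, both 0.01 with library totals, and -0.64). All of these Klhl25 calls were lost with library totals. Klhl12, which acts on COPII coat size, differed at 60 days (-0.31, which was 0.09 with library totals). Klhl7 was lower at 60 days (-0.19, adjusted p = 0.0344), a value that was 0.22 and called higher with library totals. Klhl7, Klhl12 and Klhl20 were called at 10 days with library totals but not with TMM, and so were Klhl7 and Klhl12 at 30 days. Klhl23 was lower at 10 and 30 days (-0.94 and -0.63, the latter not called with library totals) and at 60 days (-0.36, which was 0.05 with library totals). Klhl4 (-0.78, which was -0.12 and not called with library totals), Klhl28 (-0.59, which was 0.07 with library totals) and Klhl36 (-0.46, adjusted p = 0.0492, which was 0.20 with library totals) were lower at 10 days and not called later against 0 days. The Klhl36 call was also lost with upper-quartile scaling, either other count filter, the title letter as a covariate and thinned counts. Klhl26 was not called with TMM scaling (-0.11, -0.21 and -0.15 at 10, 30 and 60 days). It was called lower at 30 days by DESeq2 and with RLE factors, and higher at each time with library totals (0.54, 0.28 and 0.25).

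Of the 6 Kbtbd genes, Kbtbd2 and Kbtbd3 were called at 10 days with TMM scaling, the latter lower (-0.59, which was 0.07 with library totals). With library totals, Kbtbd4, Kbtbd6, Kbtbd8 and Kbtbd11 were called at 10 days as well, and Kbtbd3 was not. Kbtbd3 was also lower at 30 and 60 days (-0.52 and -0.37), and both of these calls were lost with library totals. Kbtbd11, just inside the abundance limit with a mean of 17.3 raw fragments, was higher at 30 days (0.83, adjusted p = 0.0251) and 60 days (1.11, adjusted p = 0.00574). The call at 30 days was lost without 0-day replicates 1 or 3 or 30-day replicates 2 or 3 (the omissions ranged from 0.65 to 1.04). Kbtbd6, at a mean of 17.8 raw fragments, and Kbtbd4 were not called over the 4 times, although Kbtbd4 was lower at 60 against 0 days (-0.34, adjusted p = 0.036, which was 0.06 with library totals). Kbtbd8 was lower at 60 days (-0.68, adjusted p = 0.0165), a call lost with library totals (-0.28) and when only the 2 groups compared were fitted. Just outside the limit lay Klhl10, a gene of sperm formation, with a mean of 5.69 raw fragments and group means of 0.03, 0.16, 0.36 and 0.31 CPM. Klhl14 had 6 fragments in all libraries together, the testis gene Asb17 had 1, and Klhl1, a neuronal gene, had 0. A count of 0 allows a level of up to 0.0752 CPM in the largest library, on the scale of library totals.

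Between operated groups the members' shares were near those of all genes. At 30 against 10 days, 11 members were higher and 14 lower (23.9% and 30.4%), beside 23% and 24.3% of all genes. The rises were led by Asb18 (log2 2.23), Asb11 (1.06) and Klhl31 (1.05), and the falls by Klhl22 (-1.13), Asb1 (-1.12) and Asb13 (-1.10). At 60 against 10 days, 15 were higher and 14 lower (32.6% and 30.4%), beside 29.1% and 31.9% of all genes, with Asb18 (2.88, and 3.61 without 10-day replicate 1), Asb11 (2.61) and Asb9 (1.79) at one end and Asb13 (-1.91), Klhl8 (-1.82) and Klhl40 (-1.35) at the other. Kbtbd11 (0.80), Klhl24 (0.30) and Asb16 (-0.50) were called there, but lost their calls without 3, 2 and 6 of the libraries in turn, with ranges of 0.65 to 0.90, 0.20 to 0.36 and -0.74 to -0.34. With library totals the counts were 5 and 19 at 30 against 10 days (10.9% and 41.3%, beside 13.1% and 34.5% of all genes). They were 11 and 22 at 60 against 10 days (23.9% and 47.8%, beside 17.7% and 45.5%).

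At 60 against 30 days, 7 members were higher (Asb11, Klhl38, Asb2, Asb10, Asb14, Klhl21 and Klhl31) and 7 lower (Klhl8, Asb13, Klhl40, Asb7, Klhl41, Kbtbd2 and Klhl7), beside 10.3% and 12.4% of all genes. The 7 that rose all belong to the muscle list and had been below the controls at 30 days, a comparison that shares the 30-day libraries. Klhl40 and Klhl41, which fell, had been above them. These counts depended on single libraries: the number higher was 4 without 30-day replicate 1 or replicate 4. The number lower was 4 without 30-day replicate 1 or 60-day replicates 2 or 3, 3 without 60-day replicate 4, and 10 without 60-day replicate 1.

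More of the shared parts of the ligases fell than rose, except with library totals. Of 29 cullin-RING machinery genes tested, 13 were lower and 2 higher at 10 days, 20 and 3 at 30 days, and 19 and 0 at 60 days, with medians of -0.25, -0.29 and -0.25. The shares lower were 44.8%, 69% and 65.5%, beside 29.4%, 30.9% and 29.1% of all genes. With library totals the test gave 0 lower and 23 higher at 10 days, 7 and 15 at 30 days, and 7 and 14 at 60 days, with medians of 0.41, 0.20 and 0.16. The shares higher were then 79.3%, 51.7% and 48.3%, beside 70%, 63.1% and 57.8% of all genes. Cul3, the scaffold of the Kelch ligases, was at 363.8 to 407.7 CPM in the controls, 243.5 to 259.0 at 10 days, 212.4 to 242.6 at 30 days and 258.3 to 336.5 at 60 days, with no overlap with the controls. Its log2 change was -0.60 ± 0.08 (adjusted p = 8.81e-06; 0.06 with library totals), -0.77 ± 0.08 and -0.46 ± 0.08, the last of which was -0.06 and not called with library totals. Cul5, the scaffold of the ASB ligases, was at 54.8 to 72.5 CPM in the controls and 43.1 to 54.9 at 10 days, where it was not called (-0.26, adjusted p = 0.174; 0.40 and called with library totals). It was at 25 to 32.6 CPM at 30 days (-1.05 ± 0.16, adjusted p = 4.2e-05) and at 24.3 to 43.3 at 60 days (-1.02 ± 0.17, adjusted p = 8.14e-05), and at 60 days the top value was replicate 1.

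Among the regulators, Dcun1d2, which helps load NEDD8 onto cullins, fell the most, from 118.1 to 146.0 CPM in the controls to 73.7 to 90.8, 36.4 to 42.4 and 26.6 to 49.9 CPM (log2 -0.69, which was -0.03 and not called with library totals, -1.77 and -2.02). Cand1, which exchanges adaptors on cullins, rose at 10 and 30 days (0.92 ± 0.11 and 0.72 ± 0.11), and its muscle paralog Cand2 was lower at each time (-0.42, which was 0.24 with library totals, -0.62, not called with library totals, and -0.69). Rnf7, the RING protein paired with cullin 5, was lower (-0.55, -0.47 and -0.22), with values of 0.11, 0.02 and 0.19 with library totals. Rbx1, its counterpart for cullin 3, was lower at 10 days (-0.25), which became 0.41 with library totals. Of the COP9 signalosome genes, which remove NEDD8, Cops3 was lower at each time (-0.29, which was 0.37 with library totals, -0.99 and -0.76).

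**Figure D5:**
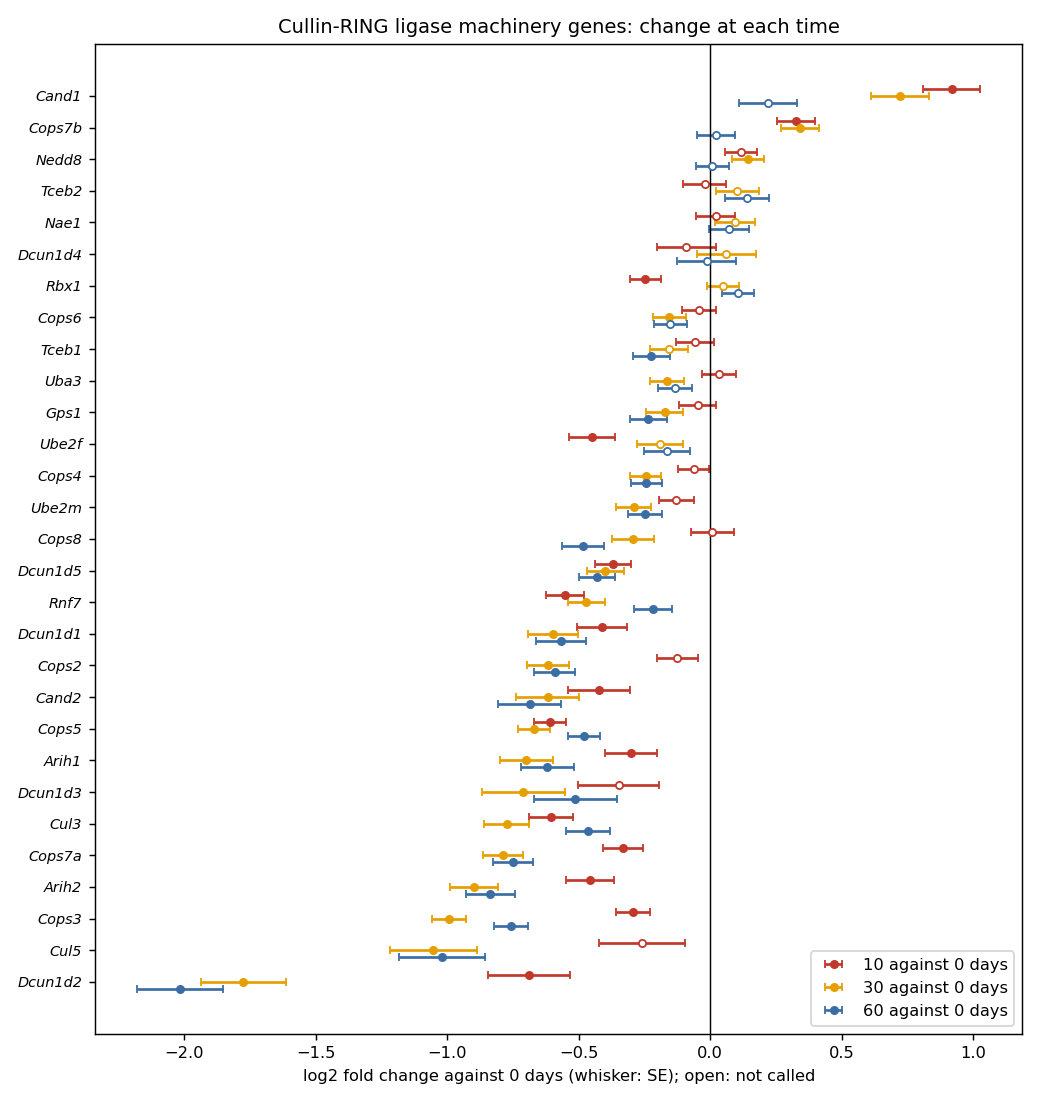
Log2 fold changes against 0 days of the 29 cullin-RING machinery genes at 10 (red), 30 (orange) and 60 days (blue), with whiskers for SE and open points where the gene was not called. Cand1 lies at the top (0.92 at 10 days) and Dcun1d2 at the bottom (-2.02 at 60 days).

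Of 3 Kelch genes with other symbols, Enc1 rose (log2 1.43 ± 0.21, 1.14 and 0.90) and Ivns1abp fell at 30 and 60 days (-0.92 and -0.93). Keap1, the sensor that keeps NRF2 low, was lower (-0.28, which was 0.38 with library totals, -0.63, not called with library totals, and -0.31, which was 0.10 with library totals). Messenger RNAs of reported targets or partners of Kelch and ASB adaptors did not share a direction. Of 6 tested, 2 were higher and 1 lower at 10 days, 3 and 1 at 30 days, and 3 and 0 at 60 days. The shares higher were 33.3%, 50% and 50%, beside 33.3%, 33.7% and 29.9% of all genes. The shares lower were 16.7%, 16.7% and 0%, beside 29.4%, 30.9% and 29.1%. Wnk1, Wnk4 and Nfe2l2 were listed for adaptors that are not members here (Klhl2, Klhl3 and Keap1). Nfe2l2, which encodes NRF2, was higher at each time (0.56, 0.42 and 0.28). Ckb, the creatine kinase bound by ASB9, was at 13.0 to 18.1 CPM in the controls, 12.5 to 19.3 at 10 days, 25.1 to 35.9 at 30 days and 29.3 to 49.2 at 60 days (0.15, adjusted p = 0.521; 1.07 and 1.28). The filamin gene Flna, whose product is a target of ASB2, was lower at 10 days (-0.91 ± 0.20, adjusted p = 0.000857), a call lost with library totals (-0.25). The muscle filamin Flnc was not called at 10 or 60 days (-0.15 and -0.33) and was lower at 30 days (-0.40, adjusted p = 0.0364, which was 0.09 with library totals). Neb and Lmod3, the thin filament partners of KLHL40, were not analysed here.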

How the data were processed

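Messenger RNA of 16 supraspinatus libraries was measured; groups and times came from the labels. The authors deposited 1 table of expected counts (raw fragments per gene). The submitters' processing notes name bcl2fastq 1.8.4, FastQC, TopHat2 2.0.9, Bowtie2 2.1.0.0, Cufflinks, Cuffdiff 2.1.1 and the build rn5; annotation, strand setting and filters are not given in the sources used here. Reads that overlapping genes or close copies share could be split by that counting. Of the 17147 genes, 233 had a fractional value; counts were rounded.

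Genes were filtered with filterByExpr by group (11658 kept) and scaled by TMM. All 16 libraries entered 1 edgeR 4.0.16 quasi-likelihood model with robust estimation, so groups share 1 estimate of spread (common biological coefficient of variation 0.15). Each pair of groups, and the 3 differences from 0 days jointly, were compared by F test, with Benjamini-Hochberg adjustment over all genes and calls at adjusted p under 0.05. Dividing the size of a log2 fold change by the root of its F statistic gave the SE. The procedure was tested on simulated data in which few genes changed, with as many higher as lower. Such data lack the broad change between groups seen here, so that test does not bear on the choice of scaling. Alternatives used DESeq2 1.42.0, limma-voom (limma 3.58.1), other scalings, filters, thresholds and covariates, and left out each library. A floor of 3 fragments covers counting error only. Counts of replicate libraries differed beyond sampling noise in all 24 pairs (chi-square per gene 13.2 to 108).

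Named in full are the muscle list and, for each time against 0 days and for 60 against 10 days, the 5 largest called rises and falls; others appear by counts and ranges, or after their values were seen. Members, lists and tests were chosen with earlier results of these data known. A further gene that meets the symbol rule, and some genes of the other lists, are not reported here. Promoter windows (250 bases before to 50 after a start) are RefSeq's on GRCr8, 1 per gene; all 50 symbols were in its gene table, and coordinates on rn5 were not used.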

Additional observations from a re-analysis of the deposited data

Results flagged for a closer look

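In 8 of 184 groups of 4 libraries, 1 library lay far from the other 3, with its gap above Dixon's 95% critical value; chance alone gives about 1 in 20, and 4.35% were found. At 60 days, replicate 4 was the lowest for Klhl31 (496.4 CPM; the others 674.4 to 706.8), Asb12 (58.16 CPM; 64.99 to 65.19) and Asb8 (95.71 CPM; 103.9 to 104.7). Without it, Klhl31 at 60 against 0 days was -0.86 (log2) and still called. At 60 days, replicate 1 was the highest for Klhl41 (2349 CPM; the others 1463 to 1533). At 10 days, replicate 1 was the highest for Asb18 (1.48 CPM; 0.3624 to 0.4599). At 30 days, replicate 1 was the highest for Klhl7 (155.1 CPM; 125.8 to 127.4). Among the controls, replicate 1 was the lowest for Klhl20 (20.24 CPM; 24.0 to 24.21) and replicate 3 for Klhl40 (175.7 CPM; 184.3 to 185.3).

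For 3 members the calls at 2 times against 0 days had opposite directions, and the difference between those times was itself called by edgeR. Klhl8 was higher at 10 days and lower at 60 days (60 against 10 days, log2 -1.816, adjusted p = 7.04e-09), with no overlap between the 4 libraries of either group. Kbtbd2 was also higher at 10 and lower at 60 days (-1.087, adjusted p = 3.43e-08), although with library totals it was not called at 60 against 0 days. Klhl17 was lower at 10 days and higher at 30 and 60 days (30 against 10 days, 0.812; 60 against 10 days, 0.717, adjusted p = 1.31e-05), and with library totals it was higher at 10 days as well.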

How the results depend on the processing

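Of 91 called log2 fold changes of named members, all kept direction and call under DESeq2, limma-voom, RLE scaling, no count filter and a filter at a mean of 10 raw fragments. Of values not called, Klhl38 at 60 against 0 days was called by DESeq2, limma-voom and with a replicate block. Scaling to library totals moved the most: 76 were unchanged in direction and call, 9 lost the call and 6 reversed, namely Asb1 (0.055), Asb16 (0.020) and Asb8 (0.071) at 10 against 0 days, Asb12 (0.099) and Klhl24 (0.016) at 30 and Kbtbd2 (0.022) at 60. With library totals, 26 members were higher and 10 lower at 10 against 0 days, 11 were lower at 30 and 16 were higher and 12 lower at 60 against 0 days. They also gave 5 higher at 30 against 10 days, 11 lower at 60 against 30 days and 22 lower at 60 against 10 days; the cause was not tested. At an adjusted p under 0.01, 6 were higher and 9 lower at 30 against 10 days, and 4 and 2 at 60 against 30 days, fewer by construction. With the letter that ends each title as a covariate, 17 members were called at 30 against 10 days, against 25 without it. Of these 17, 7 were higher. With only the 2 groups compared, 8 members were called at 60 against 30 days, against 14, and 3 of the 8 were lower. Leaving out each library in turn gave 4 to 8 higher and 3 to 10 lower at 60 against 30 days. Deviations of same-numbered libraries were weakly correlated (from -0.237 to 0.216). With 4 pairs per comparison these values cannot exclude a pairing by number, and they do not show whether libraries within a group share a rat. A replicate block gave 31, 34, 35, 25, 13 and 29 called members over the 6 comparisons, against 31, 33, 35, 25, 14 and 29. Thinning all libraries to the smallest total, added after seeing the data, kept 87 of the 91. Depth limits members near the floor, such as Klhl6, Asb9 and Kbtbd11.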
